A study of Mus musculus with 9 samples.

Results

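Transfection of an interleukin-27 (IL-27) plasmid whose product carries the peptide pepL was set against transfection of an empty plasmid in a mouse prostate cancer cell line. The comparison rested on 6 of the 9 libraries of the study, 3 labelled IL27_pepL and 3 labelled plasmid_control, chosen by their labels alone, and on all 12125 genes of the count table. IL27_pepL cells received a vector encoding IL-27 with a peptide meant to direct it to the interleukin-6 receptor alpha chain. IL27_scr cells received the same backbone encoding IL-27 with a control peptide of no stated target; their 3 libraries entered the shared estimate of spread and the test of whether a change differed between the peptides. Plasmid_control cells received the empty pcDNA3.1 backbone.

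All groups were TRAMPC2-Ras (TC2R) cells of C57/BL6 genotype, a single line derived from TRAMP-C2 prostate adenocarcinoma cells, so every control cell also carried the lentiviral activated H-ras. Each well took 1.5 µg of plasmid and 2 µL of Lipofectamine 2000 for 6 h, and cells were collected at 24 h. No label says whether replicates came from separate cultures, so the p-values cover variation among these libraries only, and that may be purely technical. In bulk RNA of transfected wells, fewer responding cells and less RNA per cell cannot be told apart, and the share of cells that took up plasmid was not measured.

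As background, IL-27 is a cytokine built of the chains Il27 (p28) and Ebi3, and it signals through Il27ra paired with Il6st (gp130), the chain also used by interleukin-6. Binding activates JAK kinases and transcription factors of the STAT family. This family is known for driving interferon-stimulated genes, which include antiviral effectors and the antigen-presentation machinery, and, through STAT3, acute-phase genes and Socs3, a feedback inhibitor.

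Depth was similar in both groups, with total counts of 30013229 to 34164353 per IL27_pepL library and 27609884 to 35078027 per plasmid_control library. Replicates correlated over genes at r of 0.993 to 0.997 on a log2 scale of CPM (counts scaled to a common library size), and IL27_pepL replicate 3 stood apart from its group at 23.3 on a first principal component that held 32.4% of the variance. The label of a prostate adenocarcinoma line was checked against markers, and most defining epithelial ones were not in the table analysed here. Of 17 fibroblast and mesenchymal markers 16 were measured, summing to 4530 to 4959 CPM in IL27_pepL and 4393 to 4488 CPM in plasmid_control, whereas 5 of 14 epithelial markers were measured, summing to 14.3 to 15 CPM in IL27_pepL and 12.8 to 15.4 CPM in plasmid_control. Epcam and Krt18 were among the epithelial markers not in the table. Of 12 prostate luminal markers 5 were measured, summing to 146 to 159 CPM in IL27_pepL and 161 to 167 CPM in plasmid_control. Most of the fibroblast and mesenchymal sum came from Vim, with means of 3155 CPM in IL27_pepL and 2801 CPM in plasmid_control. By edgeR's test 0 of the markers of any cell type passed, those of macrophages (3 of 12 measured) and lymphocytes (1 of 10 measured) included. Unadjusted p was under 0.05 for 7 fibroblast, 2 prostate luminal, 1 epithelial and 1 macrophage marker genes, and DESeq2 called 3 fibroblast markers and 0 of the others. Over all 12125 genes, 2784 had an unadjusted p under 0.05 and DESeq2 called 774.

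The delivered chains were read in every IL27_pepL library. Il27 received 237, 252 and 249 reads in the IL27_pepL libraries, against 0, 1 and 1 reads in the plasmid_control libraries. Ebi3 received 314, 375 and 419 reads in IL27_pepL, against 1, 2 and 0 in plasmid_control. Neither gene's groups overlapped, and reads from the plasmid and from the cell's own gene cannot be told apart in these counts. Both genes passed against plasmid_control whichever library was left out. Against the control peptide, Il27 differed by a log2 fold change of 0.23 ± 0.11 (SE) and Ebi3 by 0.52 ± 0.14, and neither passed (edgeR adjusted p = 0.236 and 0.0697).

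The receptor chains for the cytokine were present and did not pass the test. Il27ra, the chain that gives IL-27 its specificity, measured 2.7, 2.9 and 3.2 CPM in IL27_pepL and 2.48, 2.98 and 2.40 CPM in plasmid_control, which overlapped. Il6ra, the chain that pepL is meant to bind, measured 13.9, 16.2 and 13.5 CPM in IL27_pepL and 16.1, 17.8 and 15.2 CPM in plasmid_control, also overlapping. Il6st measured 157, 152 and 146 CPM in IL27_pepL and 172, 176 and 168 CPM in plasmid_control, where every IL27_pepL library was lower without passing (log2 fold change -0.18 ± 0.04, edgeR adjusted p = 0.0647). Among 32 measured genes of the receptor, JAK and STAT list 0 passed edgeR's test in either direction, with 10 at an unadjusted p under 0.05 and 5 called by DESeq2, and their median log2 fold change was -0.02. Of all 12125 genes, 2784 were at an unadjusted p under 0.05 and 774 were called by DESeq2.

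Across all genes 197 passed edgeR's quasi-likelihood test at a Benjamini-Hochberg adjusted p under 0.05, which is 1.62% of those tested. Of these, 52 were higher in IL27_pepL (0.429%) and 145 were lower (1.2%), and the median log2 fold change of all genes was 0.00. Changes were small: 7 of the 197 moved by 1 or more on the log2 scale, and the median was 0.41 among higher and -0.39 among lower genes. All 52 higher and all 145 lower genes had groups that did not overlap, as did 2915 of all genes (24%). The 15 highest and 15 lowest were also chosen by it, so separation of the groups adds no support of its own to a call. The higher genes were led by Hes1, acute-phase genes, immediate early genes and interferon-stimulated genes, and the lower ones by the ribosomal RNA precursor and zinc finger genes. The number of calls depended on single libraries: it was 55, 36 and 38 without plasmid_control replicates 1, 2 and 3, 2084, 55 and 138 without IL27_pepL replicates 1, 2 and 3, and 137, 127 and 110 without IL27_scr replicates 1, 2 and 3. Of the 183 called genes with an established name, 24 passed whichever library was left out, and they are identified as such where they are described.

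**Figure D1:**
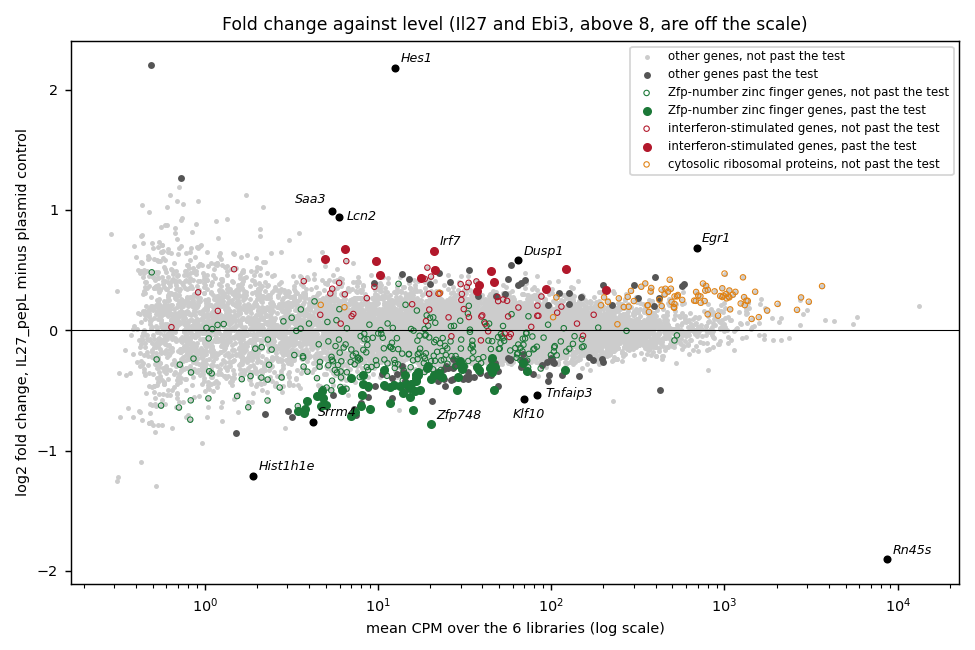
Log2 fold change of IL27_pepL over plasmid control (vertical axis) against the mean CPM of the 6 libraries on a log axis, 1 point per gene, with filled points for genes past the test. Hes1 stands at 2.18 and Rn45s at -1.90, while filled zinc finger genes lie between -0.78 and -0.23 and the ribosomal protein genes form an unfilled cloud above 0.

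After the transgenes, Hes1 was the highest of the genes above 1 CPM. Hes1 encodes a repressor of transcription best known as a target of Notch, and lies at chr16:30064384-30067796 (mm10, plus strand). It measured 19.4, 19.2 and 23.3 CPM in IL27_pepL and 4.56, 5.05 and 3.94 CPM in plasmid_control. The lowest IL27_pepL library was more than any control library, and the fold was 4.54 (log2 2.18 ± 0.11, SE, edgeR adjusted p = 1.74e-07). Hes1 passed whichever library was left out. Against the control peptide the difference was of like size (2.34 ± 0.11, adjusted p = 2.22e-07). Of 44 measured genes of the Notch pathway list 1 rose (2.27%, against 0.429% of all genes), Hes1 itself, and 43 did not pass. The median log2 fold change of the list was -0.03.

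Immediate early genes, whose transcription responds within minutes to growth factor and MAPK signals, moved both ways. Cells were collected at 24 h, so a response within minutes was not measured. Egr1, a zinc finger activator, measured 924, 860.4 and 775 CPM in IL27_pepL and 532, 476 and 582 CPM in plasmid_control. Dusp1, a phosphatase that switches off MAPKs (mm10, chr17, minus strand), measured 78.0, 78.4 and 75.8 CPM in IL27_pepL and 52.3, 47.4 and 55.5 CPM in plasmid_control. In both genes all IL27_pepL libraries stood above all controls, with log2 fold changes of 0.69 ± 0.09 for Egr1 and 0.58 ± 0.06 for Dusp1 (edgeR adjusted p = 0.00207 and 3.23e-04), and each passed in every fit that left out 1 library. Klf2, a factor of the Krüppel-like family, also rose (0.28 ± 0.05, adjusted p = 0.0199).

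Other genes of the same list fell. Klf10, a Krüppel-like repressor induced early by TGF-beta, measured 53.6, 54.5 and 59.1 CPM in IL27_pepL and 79.7, 91.8 and 77.5 CPM in plasmid_control, with a log2 fold change of -0.58 ± 0.06 (edgeR adjusted p = 8.53e-04). Every IL27_pepL library lay below every control, and the call held without any library. Dusp6 and Dusp8, phosphatases that act on ERK and on stress kinases, fell by less (-0.29 ± 0.05 and -0.39 ± 0.07, adjusted p = 0.0104 and 0.0206). In all, 3 of 63 measured immediate early and MAPK genes rose and 3 fell, 57 did not pass, and the list's median was -0.01. The calls were 4.76% each way, against 0.429% higher and 1.2% lower over all genes.

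The matricellular genes Ctgf and Cyr61, classical targets of YAP and TEAD, rose together. Ctgf measured 81.2, 80.4 and 79.9 CPM in IL27_pepL, against 62.0, 59.9 and 58.9 CPM in plasmid_control. Cyr61 measured 677, 641 and 616 CPM in IL27_pepL, against 508, 484 and 503 CPM in plasmid_control. Both sets of libraries were tight and apart, with log2 fold changes of 0.42 ± 0.04 for Ctgf and 0.37 ± 0.05 for Cyr61 (edgeR adjusted p = 4.93e-04 and 0.00267). Nuak2, a kinase that is also a YAP target, fell (-0.48 ± 0.10, adjusted p = 0.0317), and the remaining 42 of 45 genes of the YAP-TEAD list did not pass. The list had 4.44% called higher and 2.22% lower, against 0.429% and 1.2% of all genes. Sgk1, a kinase induced by serum and glucocorticoids, rose by 0.44 ± 0.05 and Trib1, a pseudokinase scaffold for protein degradation, by 0.42 ± 0.05 (adjusted p = 0.00207 and 0.00267), and Ctgf, Cyr61, Sgk1 and Trib1 passed whichever library was left out. The calls of Klf2, Dusp6, Dusp8 and Nuak2 were lost without plasmid_control replicate 2 or 3 (adjusted p from 0.0532 to 0.172). Some of them were lost without plasmid_control replicate 1 (Dusp8, Klf2 and Nuak2), IL27_pepL replicate 2 (Dusp6, Klf2 and Nuak2) or replicate 3 (Nuak2), or IL27_scr replicate 3 (Nuak2), at 0.0505 to 0.116. Adjusting for transcript length and GC ended that of Klf2 (0.0561). With only the 6 libraries compared, Dusp6, Dusp8, Klf2 and Nuak2 were all lost (edgeR adjusted p from 0.0542 to 0.0752).

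**Figure D2:**
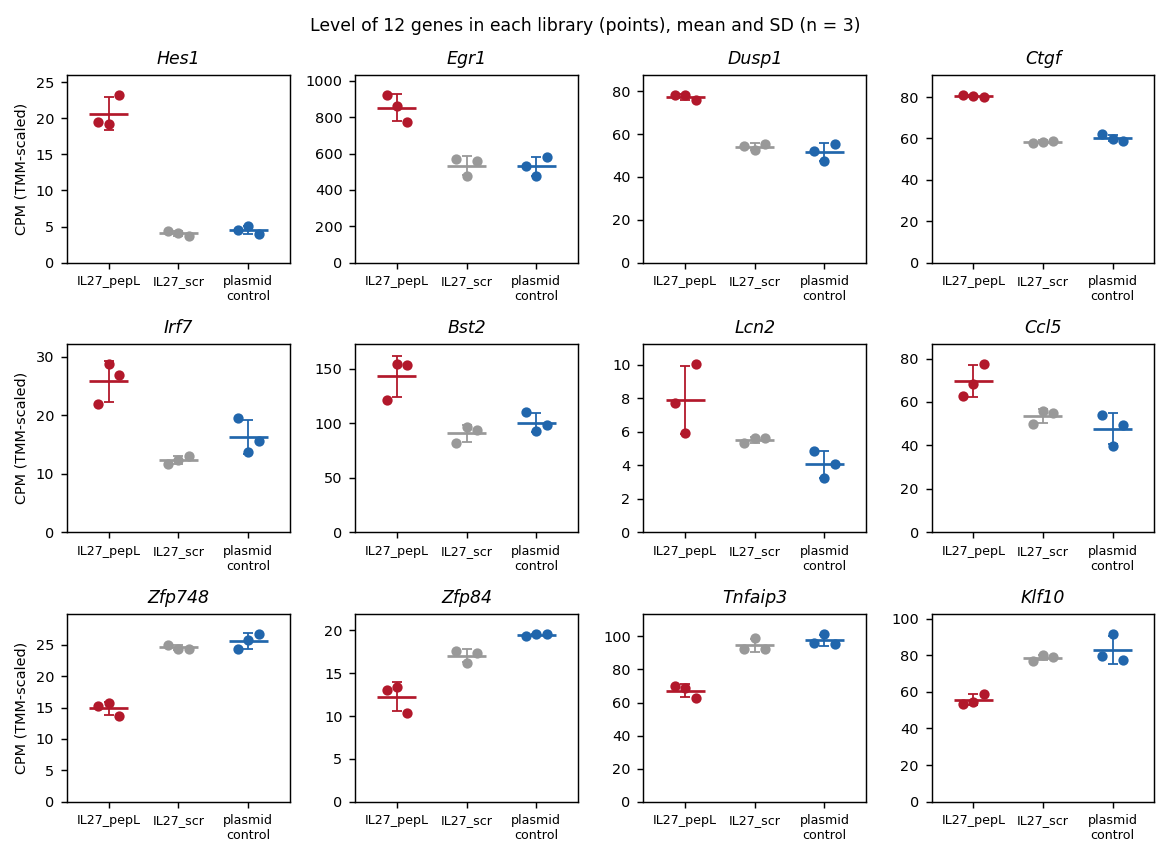
CPM of 12 genes in each library (points) with the group mean and SD (n = 3, vertical axes start at 0), for IL27_pepL, IL27_scr and plasmid control from left to right. IL27_pepL libraries lie apart from plasmid control in all 12 panels, as they do for every called gene. Hes1 stands at 20.6 ± 2.3 CPM in IL27_pepL and 4.52 ± 0.56 CPM in plasmid control, and the spread is wide in IL27_pepL for Lcn2.

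Among genes of the STAT3 and acute-phase list, 2 of 29 rose (6.9%, against 0.429% of all genes) and 1 fell (3.45%, against 1.2%). Saa3, an acute-phase apolipoprotein, measured 6.14, 6.21 and 9.26 CPM in IL27_pepL and 4.31, 2.34 and 4.08 CPM in plasmid_control. Lcn2, which binds bacterial siderophores, measured 7.72, 5.94 and 10.0 CPM in IL27_pepL and 4.85, 3.24 and 4.08 CPM in plasmid_control. The groups did not overlap in either gene, replicate 3 was the highest of IL27_pepL in both, with log2 fold changes of 1.00 ± 0.20 for Saa3 (edgeR adjusted p = 0.0314) and 0.95 ± 0.18 for Lcn2 (0.0205). Neither passed against the control peptide (0.69 ± 0.20 for Saa3 and 0.51 ± 0.17 for Lcn2, adjusted p = 0.0763 and 0.105). Socs3, the feedback inhibitor of gp130 signalling, was lower, with 35.7, 34.0 and 32.1 CPM in IL27_pepL and 44.7, 38.3 and 47.4 CPM in plasmid_control (-0.35 ± 0.08, adjusted p = 0.0438). The list's median log2 fold change was 0.05, beside 0.00 over all genes.

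Inflammatory genes split between an inhibitor and a chemokine. Tnfaip3 (A20), which edits ubiquitin chains to restrain NF-kB, measured 69.9, 68.9 and 62.6 CPM in IL27_pepL and 96.0, 102 and 95.5 CPM in plasmid_control. All IL27_pepL libraries lay well below the controls (-0.54 ± 0.05, edgeR adjusted p = 3.38e-04), and the call held without any library. Ccl5, a chemokine that draws T cells, measured 62.9, 68.1 and 77.4 CPM in IL27_pepL and 54.0, 39.7 and 49.5 CPM in plasmid_control, higher in all 3 (0.54 ± 0.10, adjusted p = 0.0199). The other 41 of 43 NF-kB targets and chemokines did not pass. The list had 2.33% called each way, against 0.429% higher and 1.2% lower over all genes. Calls were lost without plasmid_control replicate 1 (Saa3 and Socs3), 2 (Ccl5, Lcn2 and Saa3) or 3 (Ccl5, Lcn2, Saa3 and Socs3), IL27_pepL replicate 2 (Ccl5, Saa3 and Socs3) or 3 (Saa3 and Socs3), or IL27_scr replicate 1 (Socs3), 2 or 3 (Saa3 and Socs3), at adjusted p from 0.0501 to 0.128. That of Socs3 was also lost with limma-voom (0.0536). The fit of only the 6 libraries compared lost Ccl5, Lcn2, Saa3 and Socs3 (edgeR adjusted p from 0.058 to 0.0991).

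Some interferon-stimulated genes were higher in IL27_pepL. Of 73 measured members 14 rose (19.2%, against 0.429% of all genes), 0 fell and 59 did not pass. The log2 fold change was above 0 in 66 of them, with a median of 0.27. The 14 were Bst2, Cmpk2, Ifi27, Ifit3b, Ifitm3, Irf7, Isg15, Lgals9, Oas1c, Parp12, Parp9, Phf11d, Xaf1 and Zbp1.

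Irf7, the factor that amplifies the interferon response (chr7:141262706-141266481, minus strand), measured 21.9, 28.7 and 26.9 CPM in IL27_pepL and 19.5, 13.7 and 15.5 CPM in plasmid_control. The gap between the nearest libraries was small, and the fold was 1.58 (log2 0.66 ± 0.12, edgeR adjusted p = 0.0199). Ifit3b, of the family that binds viral RNA, measured 6.93, 8.67 and 8.17 CPM in IL27_pepL and 5.68, 5.05 and 4.04 CPM in plasmid_control (0.68 ± 0.13, adjusted p = 0.0205). Bst2, which tethers budding viruses to the cell, measured 121, 154 and 154 CPM in IL27_pepL and 109.8, 92.7 and 98.2 CPM in plasmid_control (0.51 ± 0.09, adjusted p = 0.0196). In all 3 genes the lowest IL27_pepL library was replicate 1 and the highest control was replicate 1. The groups did not overlap, which held for every called gene. Isg15, a ubiquitin-like modifier, measured 42.8, 59.5 and 54.9 CPM in IL27_pepL and 40.2, 35.1 and 36.2 CPM in plasmid_control (0.49 ± 0.11, adjusted p = 0.0440).

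Further members were the antiviral synthetase family gene Oas1c (0.59 ± 0.10, edgeR adjusted p = 0.0169), the nucleic acid sensor Zbp1 (0.58 ± 0.11, 0.0205) and Xaf1, which is known to antagonise an inhibitor of apoptosis (0.50 ± 0.11, 0.0354). Ifit3 and Ifit3b, like several Oas and Gbp genes, are near-identical copies, and how their shared reads were counted is not stated, which leaves their single values uncertain. Against the control peptide, in a comparison that uses the same IL27_pepL libraries, the 7 described genes had log2 fold changes from 0.60 for Oas1c to 1.07 for Irf7 and passed. The list's mean difference from the plasmid_control mean was 0.188, 0.388 and 0.194 (log2) in IL27_pepL replicates 1, 2 and 3, -0.199, -0.146 and -0.12 in the IL27_scr replicates, and 0.101, -0.091 and -0.011 in the plasmid_control replicates. Every IL27_scr library thus lay below every plasmid_control library. Members of the list called higher, 14 in the main fit, numbered 6, 0 and 1 without plasmid_control replicates 1, 2 and 3. They numbered 37 and 1 without IL27_pepL replicates 1 and 2, and 8 and 7 without IL27_scr replicates 2 and 3. Over all genes the same fits called 20, 9 and 12, 1208 and 11, and 28 and 25 higher. Of the 14 themselves, 5, 0 and 1 passed without plasmid_control replicates 1, 2 and 3. Without plasmid_control replicate 2 the 14 had adjusted p from 0.055 to 0.227, and with only the 6 libraries 2 passed. Adjusting for length and GC ended the calls of Ifi27, Ifitm3 and Isg15 (0.0588 to 0.248), and limma-voom those of Ifi27, Isg15 and Phf11d (0.053 to 0.0589).

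The promoters of 3 of these genes are shown because they hold the letters of the interferon-stimulated response element, and that of Dusp1 because it holds the cyclic AMP response element. Each is the 250 bases before the RefSeq start on the gene's own strand (GRCm38.p6, the mm10 build), 5′ to 3′, with matches in capitals. Isg15 is at chr4:156200819-156201068 (minus), Ifit3b at chr19:34607707-34607956 (plus), Bst2 at chr8:71537473-71537722 (minus) and Dusp1 at chr17:26508473-26508722 (minus).
Isg15: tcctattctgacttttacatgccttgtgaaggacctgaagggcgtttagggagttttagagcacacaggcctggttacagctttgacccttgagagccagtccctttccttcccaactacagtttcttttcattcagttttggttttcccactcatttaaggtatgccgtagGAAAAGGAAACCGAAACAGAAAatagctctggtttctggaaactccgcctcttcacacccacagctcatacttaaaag
Ifit3b: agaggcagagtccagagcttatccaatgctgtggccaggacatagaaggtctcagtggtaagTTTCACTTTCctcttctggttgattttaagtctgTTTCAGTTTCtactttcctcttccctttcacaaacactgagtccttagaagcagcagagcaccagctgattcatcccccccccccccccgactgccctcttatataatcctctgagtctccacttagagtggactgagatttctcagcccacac
Bst2: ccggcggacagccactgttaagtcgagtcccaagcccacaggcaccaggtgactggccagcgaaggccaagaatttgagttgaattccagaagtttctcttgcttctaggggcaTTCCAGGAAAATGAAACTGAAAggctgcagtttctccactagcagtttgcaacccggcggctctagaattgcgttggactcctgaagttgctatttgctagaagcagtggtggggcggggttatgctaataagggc
Dusp1: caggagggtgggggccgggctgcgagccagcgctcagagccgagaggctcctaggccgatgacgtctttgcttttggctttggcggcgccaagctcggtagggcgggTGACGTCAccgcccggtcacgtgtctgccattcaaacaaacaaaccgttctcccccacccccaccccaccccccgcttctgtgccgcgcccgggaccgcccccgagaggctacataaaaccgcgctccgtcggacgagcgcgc

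The response element was searched on both strands as GAAA, NN (any pair of bases) and GAAA. In Isg15 it had 3 overlapping matches, beginning at positions -78, -72 and -66 from the start. In Ifit3b it had 2 on the opposite strand, at -188 and -154. In Bst2 it had 2 overlapping matches at -130 and -124, and the TTCNNNGAA form of the gamma-activated site, which STAT dimers bind, began at -136 and overlapped the match at -130. The TGACGTCA of Dusp1 was at -143. RefSeq gave a promoter for 9262 of the 12125 genes, and Hes1, Zbp1 and Ccl5 were not among them.

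Of the 40 higher genes with a promoter, 12 held the response element (30%), against 2 of 112 lower genes (1.79%) and 285 of 9262 genes in all (3.08%). Within the 11 called interferon-stimulated genes with a promoter it was 5 (45.5%), and the other 7 higher genes with it were Apol9b, B2m, Gbp2, Gbp3, Saa3, Sgk1 and Tm4sf1. The promoter of Irf7 held 0 matches in this window. The gamma-activated site stood in 3 of 40 higher (7.5%) and 13 of 112 lower genes (11.6%), against 7.12% of all, and the cyclic AMP response element in 2 of 40 higher (5%) and 8 of 112 lower (7.14%), against 3.17% of all. Matches are described by their letters only and were not tested for binding.

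A few genes for antigen presentation and cell-autonomous defence were higher too. The interferon-inducible GTPases, which coat the vacuoles of intracellular pathogens, had 2 of 13 measured members higher (15.4%, against 0.429% of all genes), and 11 did not pass. The log2 fold change was above 0 in all 13, with a median of 0.35. Gbp3 measured 35.1, 43.5 and 39.2 CPM in IL27_pepL and 30.9, 25.1 and 26.9 CPM in plasmid_control, with no overlap (0.50 ± 0.09, edgeR adjusted p = 0.0158), and Gbp2 rose by 0.48 ± 0.08 (0.0118). Of 23 genes of MHC class I and antigen processing 3 rose (13%), 0 fell and 20 did not pass, with a median of 0.23, or 0.15 after adjustment for length and GC. These were Tap1, a chain of the peptide transporter (0.47 ± 0.10, adjusted p = 0.0317), B2m, the light chain of the class I molecule (0.27 ± 0.06, 0.0334), and Psme1, of the proteasome activator (0.31 ± 0.06, 0.0298).

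B2m measured 335, 361 and 337 CPM in IL27_pepL and 289, 265 and 303 CPM in plasmid_control, and the lowest IL27_pepL library lay above the highest control. Lgals9, a lectin that binds inhibitory receptors on T cells, measured 51.0, 58.2 and 50.5 CPM in IL27_pepL and 41.3, 38.5 and 40.9 CPM in plasmid_control, well apart (0.40 ± 0.06, edgeR adjusted p = 0.0102). It was 1 of 16 tumour immune ligands to pass (6.25% higher, against 0.429% of all genes). Against the control peptide it differed by 0.69 ± 0.06 (adjusted p = 2.98e-04). Ube2l6, the conjugating enzyme for ISG15 (0.42 ± 0.08, 0.0205), and Apol9b (0.29 ± 0.06, 0.0397) rose as well. Among cytosolic nucleic acid sensors 2 of 32 rose (6.25%, against 0.429% of all genes), both also interferon-stimulated (Irf7 and Zbp1). Without plasmid_control replicate 2 or 3, 0 of the 8 genes Gbp2, Gbp3, B2m, Psme1, Tap1, Lgals9, Ube2l6 and Apol9b passed (adjusted p from 0.05 to 0.181). Lgals9 alone passed without IL27_pepL replicate 2, 3 of the 8 passed without plasmid_control replicate 1, and 5 and 4 without IL27_scr replicates 2 and 3. Adjusting for length and GC ended the calls of Apol9b, B2m, Psme1 and Ube2l6, at 0.0506 to 0.22. With only the 6 libraries compared, 2 of the 8 passed, and the others had edgeR adjusted p from 0.0507 to 0.122.

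**Figure D3:**
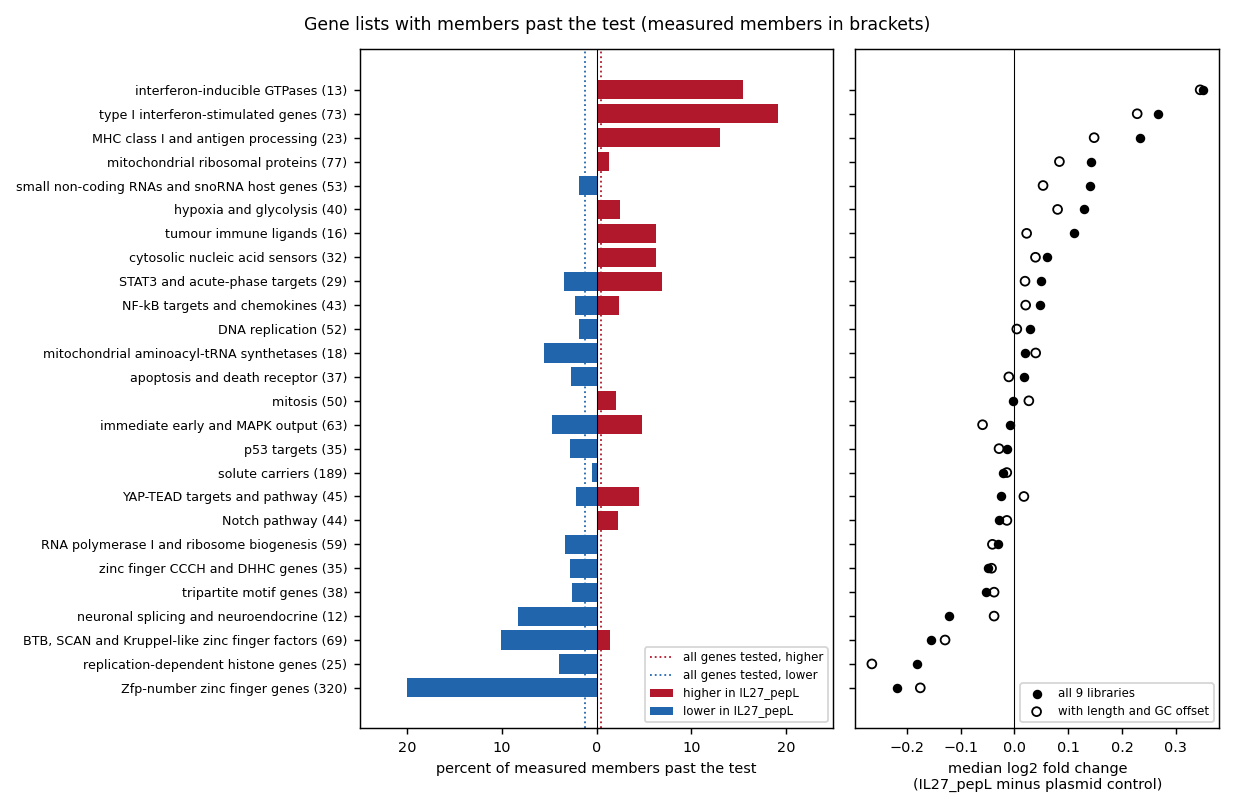
Gene lists with members past the test: on the left, the percent of measured members (number in brackets) higher (right of 0) or lower (left of 0) in IL27_pepL with dotted lines for all genes, and on the right, the median log2 fold change unadjusted (filled) and after a length and GC adjustment (open). The interferon-stimulated genes reach 19.2% higher and the Zfp zinc finger genes 20% lower, against 0.429% and 1.2% of all genes.

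Zinc finger genes named Zfp plus a number made up the largest group of lower genes. Most proteins of this kind carry arrays of C2H2 zinc fingers that bind DNA, and many carry a KRAB domain that recruits the TRIM28 corepressor to silence transposable elements. Of 320 measured, 64 fell (20%, against 1.2% of all genes), 0 rose and 256 did not pass. The median log2 fold change was -0.22, with 276 below 0. They were 44.1% of all lower genes and 2.64% of the genes tested. The called members fell by moderate amounts, with log2 fold changes from -0.78 to -0.23, and had low levels, with a median of 13.4 CPM in IL27_pepL and 18.7 CPM in plasmid_control. Of the 64, 50 also passed against the control peptide, a comparison that shares the IL27_pepL libraries and called 2.52% of all genes (1.09% higher and 1.44% lower). Zfp genes called lower, 64 in the main fit, numbered 17, 15 and 12 without plasmid_control replicates 1, 2 and 3. They numbered 136, 19 and 41 without IL27_pepL replicates 1, 2 and 3, and 39 without IL27_scr replicate 3. Over all genes the same fits called 35, 27 and 26, 876, 44 and 92, and 85 lower.

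Zfp748 (chr13:67538641-67553830, minus strand) had the smallest p of the family. It measured 15.2, 15.7 and 13.7 CPM in IL27_pepL and 24.3, 25.7 and 26.8 CPM in plasmid_control, a fold of 0.582 (log2 -0.78 ± 0.07, edgeR adjusted p = 1.02e-04). Zfp747 measured 5.71, 5.08 and 5.02 CPM in IL27_pepL and 8.81, 8.49 and 8.67 CPM in plasmid_control (-0.72 ± 0.09, adjusted p = 0.00267). Zfp84 measured 13, 13.4 and 10.4 CPM in IL27_pepL and 19.3, 19.5 and 19.6 CPM in plasmid_control (-0.66 ± 0.09, adjusted p = 0.00347). In each of these the libraries fell into separate groups, and the calls held without any library.

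Other low members were Zfp607, Zfp97, Zfp599, Zfp128 and Zfp58, with log2 fold changes from -0.69 to -0.65 and adjusted p from 0.00805 to 0.0315. Of these Zfp58 held in every fit that left out 1 library, with 7.08, 6.86 and 7.02 CPM in IL27_pepL and 10.9, 9.77 and 12.3 CPM in plasmid_control, and so did Zfp39, Zfp113, Zfp472 and Zfp595 among the rest. The call of Zfp97 was lost without plasmid_control replicate 3 (adjusted p = 0.05). Zfp128, Zfp599 and Zfp607 were lost without IL27_pepL replicate 2 and without plasmid_control replicates 1 and 3, 2 of the 3 (Zfp599 and Zfp607) without plasmid_control replicate 2 or IL27_scr replicate 3, Zfp607 without IL27_scr replicate 2, and Zfp128 without IL27_pepL replicate 3 (0.052 to 0.126). With only the 6 libraries compared, Zfp128, Zfp599 and Zfp607 were lost as well (edgeR adjusted p from 0.0654 to 0.0921). Zinc finger genes are numerous paralogs, and reads shared between near-identical copies could be dropped or split, which was not tested.

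Chromosomes 7, 13 and 17 carried the most called members, 34 of the 64, and also the most measured, 157 of the 320. Over all Zfp genes 20% fell. On chromosome 17, 12 of 42 fell (28.6%), on chromosome 13, 11 of 33 (33.3%), and on chromosome 7, 11 of 82 (13.4%). The medians there were -0.28, -0.37 and -0.23, so chromosome 13 had the lowest of the 3. On the other chromosomes the share ran from 0%, as on X (0 of 5), to 50% on chromosome 10 (3 of 6). Chromosomes 2 and 11 each had 5 of 15 (33.3%).

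**Figure D4:**
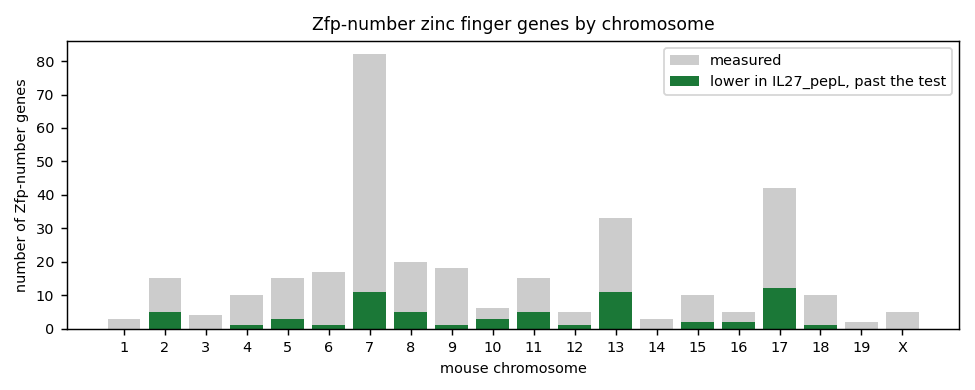
Number of Zfp-number genes measured (grey) and lower in IL27_pepL past the test (green) on each mouse chromosome. Chromosome 7 holds the most measured genes (82, with 11 lower), and chromosomes 17 (12 of 42) and 13 (11 of 33) have more lower genes per gene measured than it does.

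Of 69 measured BTB, SCAN and Krüppel-like factors 7 fell (10.1%, against 1.2% of all genes), 1 rose (Klf2) and 61 did not pass, with a median of -0.16. Of 35 CCCH and DHHC zinc finger genes 1 fell (Zc3hav1l, 2.86%, against 1.2% of all genes) and the median was -0.05. Among the fits that left out 1 library, Zc3hav1l passed only without IL27_pepL replicate 1, and had edgeR adjusted p from 0.0535 to 0.181 in the others. The 7 were Klf10, the KRAB factor Rbak, and Zbtb26, Zbtb39, Zbtb43, Zbtb6 and Zbtb9. Zbtb26 measured 41.1, 39.7 and 39.7 CPM in IL27_pepL and 52.8, 50.6 and 50.8 CPM in plasmid_control, clearly apart (-0.36 ± 0.05, edgeR adjusted p = 0.00396). Rbak, which binds the retinoblastoma protein, measured 5.62, 6.48 and 4.98 CPM in IL27_pepL and 8.84, 10.1 and 9.0 CPM in plasmid_control (-0.71 ± 0.11, adjusted p = 0.01). Klf10, Zbtb26 and Zbtb39 held in every fit that left out 1 library. The fit of only the 6 libraries compared lost Klf2, Zbtb43, Zbtb6 and Zbtb9 (edgeR adjusted p from 0.0579 to 0.0673). Rbak was lost without plasmid_control replicate 2, Klf2 and Zbtb43 without that library, without IL27_pepL replicate 2 and without plasmid_control replicates 1 and 3, Zbtb6 without plasmid_control replicates 1, 2 and 3 and Zbtb9 without plasmid_control replicates 1 and 3, at adjusted p from 0.0593 to 0.111. Of 30 genes for TRIM28 and its heterochromatin partners 0 passed edgeR's test (7 at an unadjusted p under 0.05, 1 called by DESeq2), with a median of -0.04. Over all 12125 genes, 2784 were at an unadjusted p under 0.05 and 774 were called by DESeq2.

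**Figure D5:**
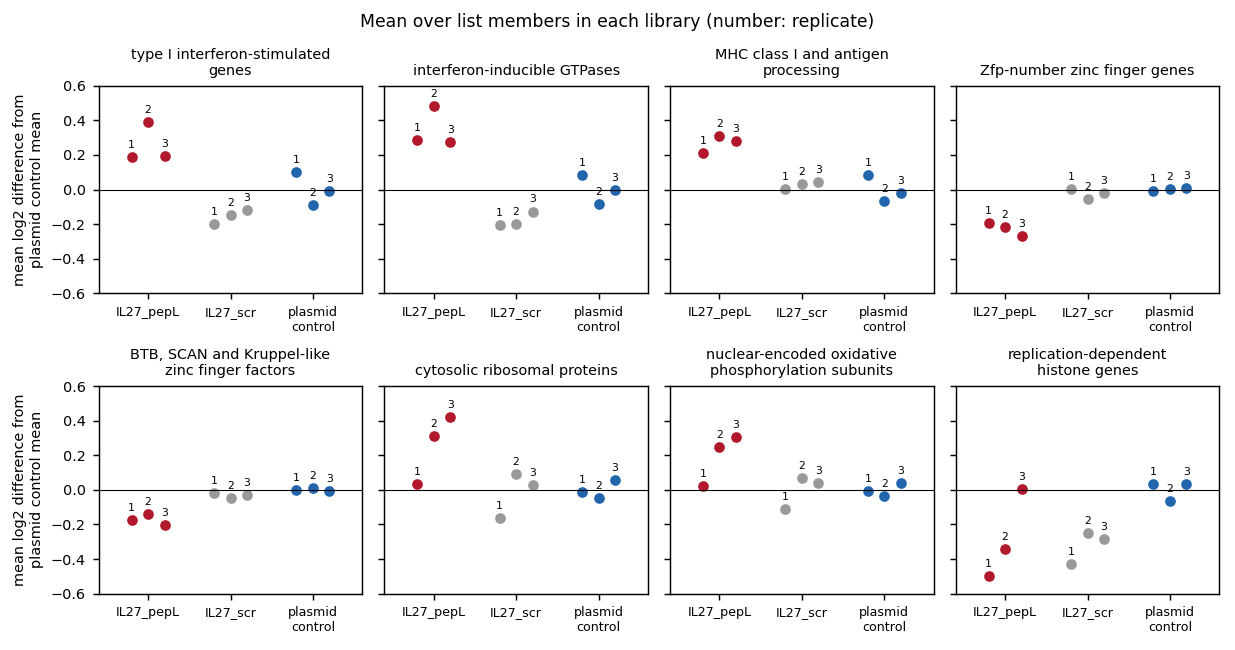
Mean log2 difference of each library from the plasmid control mean over the members of 8 gene lists, 1 point per library with its replicate number. The Zfp genes stand at -0.191, -0.219 and -0.266 in the IL27_pepL libraries, below all other libraries, while the ribosomal protein genes run from 0.034 to 0.420 within IL27_pepL.

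Short, abundant transcripts of the protein-making and respiratory machinery lay above 0 but did not pass edgeR's test. Of 80 cytosolic ribosomal protein genes 0 passed edgeR's test, 67 had an unadjusted p under 0.05 and DESeq2 called 26. All 80 were above 0, with a median of 0.27, and Rps25 measured 698, 876 and 984 CPM in IL27_pepL and 655, 611 and 687 CPM in plasmid_control (edgeR adjusted p = 0.0679). The list's mean difference was 0.034, 0.309 and 0.42 in IL27_pepL replicates 1, 2 and 3, so replicate 1 was near the controls. Without replicate 1, 69 of 80 passed, in a fit where 2084 of all 12125 genes passed and 1208 were higher. Without replicate 3 the list's median was 0.18. Of 78 nuclear-encoded oxidative phosphorylation subunits 0 passed edgeR's test with 75 above 0 (median 0.20), 51 had an unadjusted p under 0.05 and DESeq2 called 13. Of 37 proteasome subunits 0 passed edgeR's test with 37 above 0 (median 0.11), 20 had an unadjusted p under 0.05 and DESeq2 called 8. Over all 12125 genes, 2784 had an unadjusted p under 0.05 and DESeq2 called 774.

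Transcript length and GC content differed between the called sets. The median longest transcript was 2161 bases among higher, 4255 among lower and 3427 among all genes, and the median GC content was 52.8%, 43.2% and 49.6%. A per-library smooth offset for both gave 235 calls, 153 of them shared with the 197, and moved the ribosomal protein median to 0.12, the oxidative phosphorylation median to 0.05 and the Zfp median to -0.18. Under it 61 Zfp genes fell and 15 interferon-stimulated genes rose, 11 of them among the 14. What length and GC content contribute to the remaining calls was not tested.

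Outside these families, the largest fall was in Rn45s, the precursor of ribosomal RNA. It took 0.286%, 0.333% and 0.474% of all counts in IL27_pepL and 1.49%, 1.21% and 1.43% in plasmid_control (log2 fold change -1.90 ± 0.16, edgeR adjusted p = 7.49e-05). The control peptide had 0.403%, 0.313% and 0.405%, close to IL27_pepL, and the difference between the peptides was -0.00 ± 0.16 (adjusted p = 0.996). Rn45s is usually depleted or under-captured in messenger RNA libraries, and the efficiency of that step was not measured. Without Rn45s 193 genes passed.

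Srrm4, a splicing regulator of neuronal microexons that is known from neuroendocrine prostate cancer, measured 3.28, 3.21 and 2.81 CPM in IL27_pepL and 5.05, 5.38 and 5.39 CPM in plasmid_control. Its groups were apart (-0.76 ± 0.11, edgeR adjusted p = 0.00695), and it also passed against the control peptide (-0.86 ± 0.11, adjusted p = 0.00208) and in every fit that left out 1 library. Of 10 neuroendocrine markers 2 were measured, Eno2 and Ncam1, which summed to 20.1 to 24.8 CPM in IL27_pepL and 22 to 23.4 CPM in plasmid_control and did not pass. Hist1h1e, a linker histone gene without a poly(A) tail, measured 1.11, 1.07 and 1.25 CPM in IL27_pepL and 2.79, 1.91 and 3.24 CPM in plasmid_control (-1.21 ± 0.26, adjusted p = 0.0376), and 1 of 25 replication-dependent histone genes passed. That was 4% of the list, against 1.2% of all genes lower. Lrriq3 (-0.85 ± 0.16, 0.0205), Tigd5, derived from a transposase (-0.72 ± 0.13, 0.0199), and Spin4, a reader of histone methylation (-0.66 ± 0.11, 0.0106), completed the lowest genes.

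Lower genes of other kinds included Txnip, which restrains glucose uptake and thioredoxin, with 313, 361 and 378 CPM in IL27_pepL and 452, 594 and 441 CPM in plasmid_control (-0.50 ± 0.11, edgeR adjusted p = 0.0395). Homeobox genes Six4 and Dlx2 fell (-0.42 ± 0.08 and -0.41 ± 0.07). So did Brca2 and E2f2, which act in DNA repair and the entry into S phase (-0.34 ± 0.08 and -0.37 ± 0.07), the ribosome biogenesis genes Mdn1 and Taf1a (-0.37 ± 0.07 and -0.46 ± 0.09), and Cflar and Eda2r of the death receptor and p53 pathways (-0.34 ± 0.08 and -0.39 ± 0.09). Their adjusted p ran from 0.0199 to 0.0474. Calls in this group were widely lost without a library: of the 22 lower genes examined together, 3, 3 and 4 passed without plasmid_control replicates 1, 2 and 3, 6 and 15 without IL27_pepL replicates 2 and 3, and 15, 15 and 14 without IL27_scr replicates 1, 2 and 3. Rn45s and Srrm4 passed in all of these. The fit of only the 6 libraries compared kept 8 of the 22, and the others had edgeR adjusted p from 0.058 to 0.124. The call of Brca2 also ended with DESeq2 size factors, the 1 CPM filter, limma-voom, the length and GC adjustment or removal of Rn45s, and that of Eda2r with the filter, limma-voom or the adjustment, at 0.0504 to 0.0738. That of Hist1h1e ended with limma-voom. In all, the length and GC adjustment ended 5 of the 22 calls, that of Zc3hav1l included, at edgeR adjusted p from 0.0511 to 0.324.

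Higher genes of other kinds were mostly abundant and moved little. S100a11, a calcium-binding protein, measured 233, 218 and 220.3 CPM in IL27_pepL and 174, 149 and 193 CPM in plasmid_control, all higher (0.38 ± 0.08, edgeR adjusted p = 0.0341). Mif, a cytokine and tautomerase, measured 581, 634 and 757 CPM in IL27_pepL and 516, 463 and 534 CPM in plasmid_control (0.38 ± 0.08, adjusted p = 0.0367). Tmsb4x, which sequesters actin, rose by 0.38 ± 0.08 and H3f3a, a replacement histone, by 0.39 ± 0.08 (0.0367 and 0.0245). Of 17 such genes, which include Cst3, Cenpa, Tm4sf1, Atox1, Tuba1b, Cnn2, Tomm40, Ncaph2, Mrpl11, Wisp2, Pkig, Abhd17a and Frat2, 0 passed without plasmid_control replicate 1 or 2 or IL27_pepL replicate 2, 2 without plasmid_control replicate 3, 6 without IL27_pepL replicate 3, and 3, 4 and 2 without IL27_scr replicates 1, 2 and 3. With only the 6 libraries compared, 0 of the 17 passed (edgeR adjusted p from 0.0673 to 0.139). Adjusting for length and GC ended 7 of the 17 calls, those of S100a11, Mif, Tmsb4x, Cst3, Atox1, Tuba1b and Frat2 (0.0778 to 0.261), and limma-voom those of Atox1, Cenpa, Cst3 and Frat2 (0.053 to 0.0569).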

How the data were processed

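Per the labels' protocols, RNeasy columns gave the RNA. The deposited table holds whole-number read counts per gene for 9 libraries, each column matched to a single sample by its name, with 0 columns of other series. The submitters' processing notes name FastQC, STAR 1.5.1, featureCounts, Subread 1.6.1, edgeR 3.22.5 and mm10, and whether 1.5.1 is STAR's version is uncertain. Annotation, strand setting and RNA selection are not stated in the labels, so overlapping or antisense genes may share counts. Every gene reached at least 0.501 CPM in 3 libraries, so low genes appear to have been removed before deposit, inferred from the values.

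Counts were fitted with edgeR 4.0.16 (R 4.3.3): TMM, all 9 libraries, group as the only term, quasi-likelihood test, Benjamini-Hochberg adjustment over 12125 genes, threshold 0.05. Each SE was derived from this test, as the absolute log2 fold change divided by the square root of its F statistic. The default low-count filter (filterByExpr) took out 0 genes, and the common coefficient of variation between replicates beyond counting error was 5.76%. Alternatives used DESeq2 1.42.0 and limma-voom 3.58.1, and length and GC smooths from mgcv 1.9.3 over the longest annotated transcript, known for 99.5% of genes. Gene positions come from GENCODE on GRCm38 and promoters from RefSeq. Members and lists were chosen with earlier results of these data known. Full values went to the 15 highest and 15 lowest called genes of at least 1 CPM whose groups did not overlap, and, within a list, to the called members with the lowest p (4 at most), or 2 members where none was called. A few genes and 1 gene list are not reported here.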

Additional observations from a re-analysis of the deposited data

How the results depend on the processing

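None of the 183 called genes with an established name changed sign under the alternatives that gave it a value. Size factors from DESeq2, a 1 CPM filter, no filter, limma-voom, the length and GC offset and removal of Rn45s gave 175 to 235 calls in place of 197. DESeq2's Wald test gave 774 (336 higher, 438 lower), with 101 Zfp genes lower and 33 interferon-stimulated genes higher. The fit of only the 6 libraries gave 48 (13 higher, 35 lower), with 16 Zfp and 2 interferon-stimulated genes. Leaving out 1 library at a time gave 36 to 2084 calls, 9 to 1208 higher and 26 to 876 lower, with 12 to 136 Zfp genes and 0 to 37 interferon-stimulated genes. IL27_pepL against IL27_scr gave 306 calls, 793 with DESeq2's Wald test and 69 to 1782 with 1 library left out. The cause was not tested.

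With replicate number as a block, 1019 genes passed (448 higher, 571 lower), with 108 Zfp and 26 interferon-stimulated genes, and 1110 passed against IL27_scr. No label says whether the numbers pair the samples. Deviations of same-numbered IL27_pepL and plasmid_control libraries correlated at 0.0491, 0.161 and -0.0599, and those of differently numbered ones at -0.157 to 0.0954. The IL27_scr libraries were not compared in this way, so pairing was not settled.

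Before adjustment 2784 genes had p under 0.05, and 2915 (24%) had groups that did not overlap.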

Other observations

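Several pathways with measured members gave 0 calls by edgeR in IL27_pepL against plasmid_control. Their other counts stand beside 2784 of all 12125 genes at an unadjusted p under 0.05 and 774 called by DESeq2. Among 34 ATF4 targets the median log2 fold change was -0.08, with 24 below 0, 14 at an unadjusted p under 0.05 and 6 called by DESeq2. Among 34 NRF2 and oxidative stress genes it was 0.11, with 29 above 0, 17 at an unadjusted p under 0.05 and 7 called by DESeq2. ER chaperones and unfolded protein response genes (37) stood at 0.01, cholesterol and fatty acid synthesis genes (41) at 0.02, matrix, integrin and protease genes (58) at -0.04 and Wnt pathway genes (37) at -0.04. Unadjusted p was under 0.05 in 6, 3, 7 and 4 of these lists' genes, and DESeq2 called 2, 1, 1 and 0. Of 21 circadian clock genes 17 were below 0 (median -0.06), 5 had an unadjusted p under 0.05 and DESeq2 called 2. Clock measured 88.7, 86.2 and 75.1 CPM in IL27_pepL and 95.7, 96.3 and 97.9 CPM in plasmid_control without passing (edgeR adjusted p = 0.0921). Socs1, a feedback inhibitor of interferon signalling, measured 10.5, 11.9 and 15.1 CPM in IL27_pepL and 16.9, 17.3 and 16 CPM in plasmid_control, lower in all libraries without passing (-0.43 ± 0.11, adjusted p = 0.0682). Of 40 hypoxia and glycolysis genes 1 passed edgeR's test, Mif, which rose, with 20 at an unadjusted p under 0.05, 9 called by DESeq2 and a median of 0.13. The edgeR call was 2.5% of the list, against 0.429% of all genes higher.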
